A study of Mus musculus with 12 samples.

Results

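Expression of 6 mouse genes, C1qb, Ctss, Aif1, Pf4, Fabp4 and Pycard, was followed while embryonic stem (ES) cells differentiated in embryoid bodies (EB). They were taken as every array feature whose annotated symbol was exactly one of these names, which gave 6 features, 1 for each gene, of 11520 on the array and 6 of 9212 named genes. The genes had been selected on the same log ratios that are described here. Their own values are therefore given as a description with no test, and tests were made only on other genes. C1qb, Ctss, Pf4 and Fabp4 stood higher in EB at day 21 than on any day 4 array, Pycard stood lower, and Aif1 overlapped with its day 4 values.

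The study compared R1 mouse ES cells, an established line kept undifferentiated on gelatin with leukemia inhibitory factor in serum-containing ES medium, with EB, aggregates of ES cells that differentiate in many directions at once. EB were dissociated, and their cells were plated in serum-containing DMEM for 4, 8, 15 or 21 days. The labels name no other treatment and no genetic change in any group. Total RNA of both was labelled with different dyes and hybridised together on 12 two-channel arrays, 3 for each day, with ES RNA in 1 channel and EB RNA in the other. The value for a gene is the log ratio of the channels as the authors deposited it, read as log2, so that 1 is a doubling and -1 a halving. Nothing in the labels tells separate cultures from repeat hybridisations within a day, so SDs and p-values cover the spread between arrays alone, which may be technical. ES RNA stood on every array as the partner of EB RNA, so it counts as 1 control sample, and the test of a day against 0 leaves out the spread of the ES cells.

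Positive values are taken to mean more RNA in EB than in ES cells. That sign is likely but not settled: the labelling protocols assign Cy3 to the ES cells and Cy5 to EB, while the titles and dye fields have the opposite order. It was chosen from genes of known behaviour. At day 21 the ES cell markers Zfp42 (-2.54 ± 0.02, SD, n = 3) and Nanog (-1.69 ± 0.42) were negative, and the yolk sac and fetal liver genes Afp (3.6 ± 0.44) and Ttr (3.26 ± 0.50) were positive. Should the sign be the other way, higher and lower change places throughout. No dyes were swapped, so a dye effect of a single gene would remain in its ratio. Array medians lay between -0.0018 and 0.0106, and the SD of an array over all features grew from 0.228 to 0.314 at day 4 to 0.351 to 0.416 at day 21. The day 8 arrays did not resemble each other in endoderm genes, with Afp at 0.01, 2.42 and 3.01 on arrays 1 to 3.

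Macrophages are phagocytes that arise early in development from blood precursors of the yolk sac, and they clear dying cells and degrade what they take up in lysosomes. Platelets are fragments shed by megakaryocytes, and they carry granules of chemokines and clotting factors. Both lineages are known to form from ES cells in embryoid bodies. C1qb is a chain of C1q, the recognition part of the classical complement pathway, and is made chiefly by macrophages. Ctss encodes cathepsin S, a lysosomal cysteine protease of antigen-presenting cells that trims the invariant chain of MHC class II molecules. Aif1, also called Iba1, is an actin-binding protein of macrophages and microglia. Pf4 is platelet factor 4, a CXC chemokine stored in platelet granules. Fabp4 is a fatty acid binding protein of adipocytes that macrophages and the endothelium of small vessels also make. Pycard encodes ASC, the adaptor that links inflammasome sensors to caspase 1.

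The start regions of the genes are shown because C1qb, Ctss, Pf4 and Fabp4 stood higher at the late days and Pycard lower, and the sequences let these regions be set side by side. RefSeq's promoter table for GRCm38.p6 held 5 of the 6 genes, Fabp4 not among them. Each line gives 120 bases before the annotated start and 30 bases from it, read 5′ to 3′ on the gene's own strand. Capitals mark GAGGAA, an ETS family core of the kind that Spi1, the master regulator of macrophages, binds (TTCCTC is the same letters on the opposite strand), and a pair of GAAA with any 2 bases between, a core of the interferon regulatory factor type. The regions are C1qb at chr4:136886171-136886320 (minus strand), Ctss at chr3:95526666-95526815 (plus strand), Aif1 at chr17:35176023-35176172 (minus strand), Pf4 at chr5:90772315-90772464 (plus strand) and Pycard at chr7:127993838-127993987 (minus strand).
C1qb: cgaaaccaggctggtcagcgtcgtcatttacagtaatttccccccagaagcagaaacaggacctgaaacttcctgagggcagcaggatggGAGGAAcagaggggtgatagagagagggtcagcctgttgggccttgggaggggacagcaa
Ctss: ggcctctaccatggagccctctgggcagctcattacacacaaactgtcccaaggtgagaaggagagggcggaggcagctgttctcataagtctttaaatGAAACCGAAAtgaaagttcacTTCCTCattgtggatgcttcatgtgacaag
Aif1: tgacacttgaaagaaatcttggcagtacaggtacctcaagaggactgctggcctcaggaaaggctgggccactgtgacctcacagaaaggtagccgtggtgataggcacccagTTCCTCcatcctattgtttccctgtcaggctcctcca
Pf4: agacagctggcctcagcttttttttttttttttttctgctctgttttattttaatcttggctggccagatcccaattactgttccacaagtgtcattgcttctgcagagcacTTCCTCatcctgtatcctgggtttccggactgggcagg
Pycard: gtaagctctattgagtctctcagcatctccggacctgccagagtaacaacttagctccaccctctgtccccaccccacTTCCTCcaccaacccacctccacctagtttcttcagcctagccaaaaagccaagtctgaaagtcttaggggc

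Both strands of the table's whole windows, 250 bases before the start and 50 from it, were searched in 32851 promoters. GAGGAA was found in 5 of the 5 regions, and in 28.3% of all promoters in the table. In C1qb it lay at -30 to -25 from the start, in Ctss at 1 to 6 and again at -164 to -159, in Aif1 at -7 to -2, in Pf4 at -8 to -3 and in Pycard at -42 to -37. The region of Pycard, the gene that stood lower in EB, thus held these letters as well as the regions of the genes that stood higher. The paired GAAA core occurred in Ctss at -21 to -12 and in Aif1 at -157 to -148, and in 3.44% of all promoters. AGATAA, a core of the GATA factors that act in megakaryocytes and red cells, occurred in Pf4 at 37 to 42, just past the printed stretch, and in 11.2% of all promoters. The matches of different motifs share no position in these windows. A match is a run of letters and was not tested as a binding site.

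C1qb lay near 0 until day 8 and stood above 0 on all 3 arrays at day 21. On arrays 1, 2 and 3 its log2 ratios were -0.09, 0.05 and 0.08 at day 4 and -0.13, -0.06 and 0.11 at day 8. They were 0.23, 0.65 and -0.06 at day 15, and 0.81, 0.64 and 1.06 at day 21. The day 15 arrays overlapped with the earlier days through array 3, whereas all day 21 arrays lay above all day 4 and day 8 arrays. The mean went from 0.01 ± 0.09 (SD, n = 3) at day 4 to 0.27 ± 0.36 at day 15 and 0.84 ± 0.21 at day 21, where the linear ratio of EB to ES was 1.79.

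Ctss had the highest day 21 mean of the 6 genes and also the widest spread there. Its values were -0.15, 0.16 and -0.30 at day 4 and -0.15, -0.28 and -0.53 at day 8, when all 3 arrays lay below 0. At day 15 they were 0.63, -0.17 and 0.46, and at day 21 they were 1.36, 0.45 and 2.34. The day 21 values did not overlap with day 4 or day 8, but array 2 at day 21 stood below arrays 1 and 3 at day 15. The day 21 mean was 1.38 ± 0.94 (SD, n = 3), a linear ratio of 2.60, and it was 0.90 without array 3 and 1.85 without array 2, so single arrays set its size.

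Aif1 was the gene of the macrophage group with the smallest difference. It measured -0.64, 0.04 and -0.16 at day 4, -0.54, -0.17 and 0.18 at day 8, 0.09, -0.07 and 0.39 at day 15, and 0.09, 0.03 and 0.49 at day 21. All day 21 arrays were above 0, but arrays 1 and 2 by less than 0.1, and array 2 at day 4 lay above array 2 at day 21. The means were -0.25 ± 0.35 at day 4 and 0.20 ± 0.25 at day 21 (SD, n = 3), and the day 21 mean was 0.06 without array 3. The difference of 0.46 between these means stands beside overlapping arrays, so Aif1 was not separated from its early values.

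Pf4 stood out at day 15 already, earlier than the other 4 genes with higher values. Its log2 ratios were -0.12, -0.24 and -0.22 at day 4 and -0.17, -0.14 and 0.04 at day 8. They reached 1.56, 1.25 and 0.53 at day 15 and 1.36, 1.16 and 0.33 at day 21. Every array of days 15 and 21 lay above every array of days 4 and 8, and at both late days array 3 was the lowest. The mean was 1.11 ± 0.53 (SD, n = 3; linear ratio 2.17) at day 15 and 0.95 ± 0.54 (linear ratio 1.93) at day 21. These 2 late days overlapped, with a difference of -0.17 between their means, so no further change between them can be read from the data.

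Fabp4 stood apart from its early values only at day 21. It measured -0.23, 0.02 and -0.12 at day 4 and -0.05, -0.23 and -1.05 at day 8, then 0.28, 0.54 and -0.32 at day 15. At day 21 it stood at 1.38, 1.77 and 0.80, above every array of the other 3 days. The mean was 0.17 ± 0.44 at day 15 and 1.32 ± 0.49 at day 21 (SD, n = 3; linear ratio 2.49), a difference of 1.15. Array 3 gave the lowest value at days 8, 15 and 21, and without it the day 21 mean was 1.57.

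Pycard ran the opposite way and had the largest difference from ES cells of the 6. At day 4 it was scattered at -0.20, 0.72 and -0.64, and at day 8 at 0.33, -0.18 and -0.59. At day 15 it stood at -1.68, -1.66 and -1.37, and at day 21 at -2.14, -1.94 and -1.68. All 6 late arrays lay below all 6 early arrays, and the arrays of the 2 late days met at -1.68. The mean was -1.57 ± 0.18 (SD, n = 3) at day 15 and -1.92 ± 0.24 at day 21, so the linear ratio of EB to ES was 0.337 and then 0.264. The SD at these days was smaller than the 0.70 at day 4.

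**Figure D1:**
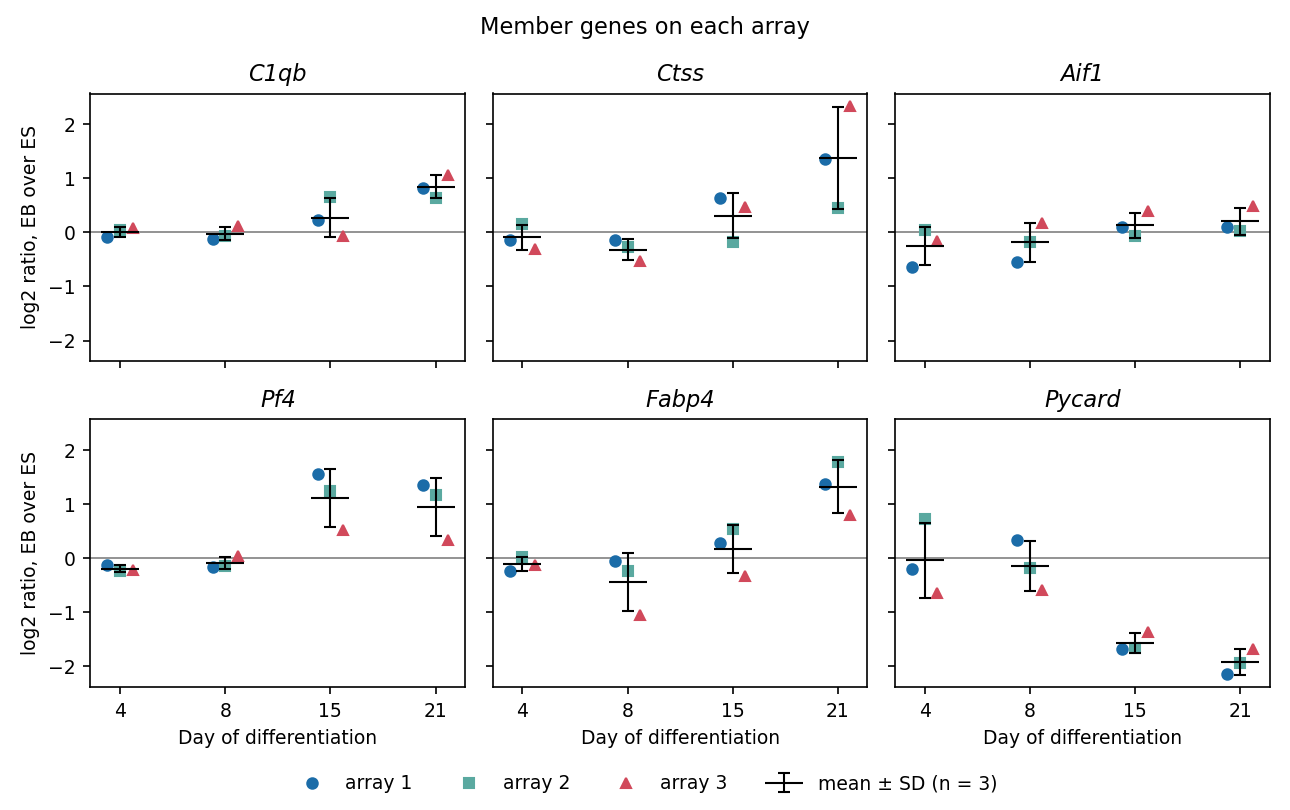
Log2 ratio of EB over ES (vertical axis) at days 4, 8, 15 and 21 (horizontal axis) for the 6 genes, with 1 symbol for each array and a bar for the mean ± SD over 3 arrays. C1qb, Ctss and Fabp4 separate from the early days at day 21, Pf4 and Pycard at day 15, and array 3 of days 15 and 21 is the lowest for Pf4 and Fabp4 and the highest for Aif1.

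In order of the day 21 mean the genes stood as Ctss 1.38, Fabp4 1.32, Pf4 0.95, C1qb 0.84, Aif1 0.20 and Pycard -1.92. Ctss, Fabp4, Pf4 and C1qb are neighbours whose arrays overlap, so their order is not resolved. Pycard was apart from the others on every array, and Aif1 overlapped with Ctss and Pf4. At day 15 the order began with Pf4 at 1.11, followed by Ctss at 0.31, C1qb at 0.27, Fabp4 at 0.17, Aif1 at 0.13 and Pycard at -1.57. The order of the middle 4 is not resolved, since leaving out 1 array moved Ctss between 0.15 and 0.54, C1qb between 0.09 and 0.44, Fabp4 between -0.02 and 0.41 and Aif1 between 0.01 and 0.24. Since each value is a ratio to ES cells for its own probe, this order ranks differences and not levels.

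At day 15, 1 gene (Pf4) had all 3 arrays above 0, as had 24.4% of the 10689 features tested, and 1 gene (Pycard) had all 3 below, as had 23.3%. At day 21 these were 5 genes above, against 27.8% of features, and 1 below, against 26.6%. For 4 of the 6 genes all day 21 arrays lay above all day 4 arrays, as for 12.6% of features, and for Pycard all lay below, as for 12.2%. These shares are given as background only, because the genes were selected on these values.

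The 6 genes did not deviate together on the arrays of a day. Deviations of the arrays from their day means gave a Pearson correlation of 0.53 between Pf4 and Fabp4, of -0.68 between Aif1 and Fabp4, of -0.52 between Ctss and Pf4 and of 0.38 between Ctss and Aif1. For C1qb they were 0.11 with Ctss, 0.16 with Aif1, 0.08 with Pf4, -0.03 with Fabp4 and -0.18 with Pycard. These describe 12 arrays that share their ES partner and their hybridisation. At the late days Aif1 and Ctss, 2 of the 3 macrophage genes, stood above the mean of arrays 1 and 2 on array 3, where Pf4 and Fabp4 stood below it. On that array Pf4 was at 0.53 and 0.33 against means of 1.41 and 1.26 on arrays 1 and 2, and Fabp4 at -0.32 and 0.80 against 0.41 and 1.57. Aif1 was at 0.39 and 0.49 there against 0.01 and 0.06, and Ctss at 0.46 and 2.34 against 0.23 and 0.90. C1qb went both ways on array 3, at -0.06 against 0.44 at day 15 and at 1.06 against 0.73 at day 21. The features with no gene symbol also set these arrays apart. Their first component of deviations put array 3 of each day and array 2 of day 8 on one side and the other 7 arrays on the opposite side, with array 2 of day 8 near the boundary at a loading of 0.03. The labels name no batch, and the part of this split in the values of the 6 genes was not tested.

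The other genes of these cells and pathways were read from 14 lists covering 412 different genes, of which 328 were measured, with the 6 genes left out. They were tested with limma over all 10689 features, two-sided, with Benjamini-Hochberg adjustment and a threshold of 0.05. Against ES cells, 0 list genes passed at day 4, where limma called 0.0% of all features higher and 0.0% lower. At an unadjusted p under 0.05 there were 21 list genes at day 4, against 16.4 expected of 328. At day 8, 6 list genes were higher (1.83%, beside 1.23% of all features) and 2 lower (0.61%, beside 1.06%). At day 15, 28 were higher (8.54%, beside 5.66% of all features) and 6 lower (1.83%, beside 4.9%). At day 21, 55 of 328 were higher (16.8%, beside 8.78% of all features) and 16 lower (4.88%, beside 9.93%). The median over the list genes at day 21 was 0.06, beside 0.00 over all features. In bulk RNA, fewer cells of a type and less RNA per cell cannot be told apart, for these genes and for the 6 above alike.

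Receptors and adaptors of macrophages were higher in part. Of 37 measured, 8 (21.6%, beside 8.78% of all features) were higher and 1 lower at day 21, and 4 were higher at day 15. The median at day 21 was 0.10. Fcgr3, a low-affinity receptor for antibody, measured 1.42, 1.32 and 1.12 at day 21 (1.28 ± 0.15, SD, n = 3, limma adjusted p = 0.000282), and its arrays did not overlap with day 4. Mrc1, the mannose receptor, measured 0.73, 1.33 and 0.65 (0.91 ± 0.37, adjusted p = 0.0011). Lyz1, a lysozyme whose sequence is close to that of Lyz2, which the probe may also catch, measured 0.25, 0.62 and 1.17 (0.68 ± 0.46, adjusted p = 0.00361), highest on the array where Ctss was highest. These 3 calls held without each of the 12 arrays in turn, but that of Lyz1 was lost when day 21 was fitted alone (adjusted p = 0.0619).

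Markers that define macrophages gave a mixed picture at day 21. Tyrobp, the signalling adaptor DAP12, was higher at 0.45 ± 0.15 (adjusted p = 0.00322), with 0.44, 0.32 and 0.61 on the arrays. Fcer1g, the common gamma chain of Fc receptors, was higher at 0.37 ± 0.18 (adjusted p = 0.00867), but not without array 2 (0.34, adjusted p = 0.0687) or array 3 (0.30, adjusted p = 0.0573), or with day 21 fitted alone (adjusted p = 0.0624). Adgre1, an adhesion receptor widely used to stain mouse macrophages, was higher at 0.65 ± 0.33 (adjusted p = 0.0156), but not without array 1 (0.71, adjusted p = 0.0597) or array 3 (0.46, adjusted p = 0.111). It was also lost after quantile normalization (0.55, adjusted p = 0.0869) and with arrays scaled to equal spread (0.55, adjusted p = 0.075). Over its 12 leave-outs the adjusted p of Fcer1g ran from 0.00729 to 0.0687 and that of Adgre1 from 0.00476 to 0.111. Itgam, the CD11b integrin, stood at 0.15 ± 0.11 (adjusted p = 0.226) and Ptprc, the CD45 phosphatase of all white blood cells, at 0.07 ± 0.11 (adjusted p = 0.594). Of 20 defining markers 17 were measured, and Csf1r, Cd68 and Lyz2 were not analysed here. Of these 5 markers, Tyrobp passed at day 21 under each of these settings, Fcer1g and Adgre1 passed under some, and the CD11b and CD45 genes did not pass.

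Complement genes included the partners of C1qb. C1qa, the A chain of C1q, measured 0.43, 0.24 and 0.70 at day 21 (0.46 ± 0.23, limma adjusted p = 0.00562). Like C1qb, it was highest on array 3 and lowest on array 2, an order that Dcn and Zfpm2, described below, also showed. C1qc, the C chain, measured 0.20, -0.31 and 0.18 (0.02 ± 0.29, adjusted p = 0.907). Thus C1qa passed the test and C1qc did not, while C1qb stood at 0.84. Of 23 complement genes measured, 8 (34.8%, beside 8.78% of all features) were higher and 2 (8.7%, beside 9.93%) lower at day 21. Their median was 0.11. Cfb, factor B of the alternative pathway, was at 1.22 ± 0.26 (adjusted p = 0.000241). Cd55, which protects cells from complement, was at 1.18 ± 0.03 (adjusted p = 0.0011). Cfi, the protease that cleaves C3b, was at 0.85 ± 0.56 (adjusted p = 0.0054), but not called without array 1 (0.53, adjusted p = 0.0545, the highest of its 12 leave-outs, which start at 0.00322) or with day 21 fitted alone (adjusted p = 0.0544). Cfb and Cd55 were higher at day 15 too, at 1.01 ± 0.46 (adjusted p = 0.00179) and 1.61 ± 0.54 (adjusted p = 0.000363), and both calls held without each array, but that of Cfb was lost when day 15 was fitted alone (adjusted p = 0.0569). Cfb and Cfi are known products of liver and endoderm cells as well as of macrophages, and the endoderm genes Afp and Ttr had means of 3.48 and 3.37 at day 15. The part of endoderm cells in these values was not tested.

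Cathepsins and other lysosomal genes, the family and compartment of Ctss, had the most calls of the 14 lists. Of 27 measured, 13 (48.1%, beside 8.78% of all features) were higher and 0 lower at day 21, with 17 at an unadjusted p under 0.05. At day 15, 8 (29.6%, beside 5.66%) were higher and 0 lower. Their median was 0.42 at day 21 and 0.36 at day 15. Lamp2, a protein of the lysosomal membrane, measured 1.44, 1.34 and 1.25 at day 21 (1.34 ± 0.10, adjusted p = 6.09e-05). Ctsb, cathepsin B, measured 1.15, 0.84 and 1.20 (1.06 ± 0.19, adjusted p = 0.0014). Both calls held without each array. The arrays of these genes lay closer together than those of Ctss, which ran from 0.45 to 2.34.

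Ctsh, cathepsin H, had an earlier course than Ctss. It was called at day 8 (1.54 ± 0.59, adjusted p = 0.0235) and day 15 (1.78 ± 0.41, adjusted p = 0.00303), when Ctss stood at -0.32 and 0.31. At day 21 Ctsh was at 1.08 ± 0.36 (adjusted p = 0.0238). Its 2 probes gave 1.5 and 0.66 there, and the call was lost without array 1 (0.92, adjusted p = 0.16) or array 2 (1.05, adjusted p = 0.117), with a range over the leave-outs from 0.00761 to 0.16. It was lost as well after quantile normalization (0.84, adjusted p = 0.168) and with equal spread (0.85, adjusted p = 0.154). The day 8 call was lost without array 2 (1.43, adjusted p = 0.109) or array 3 (1.32, adjusted p = 0.21) of that day, and with day 8 fitted alone (adjusted p = 0.0738). Lysosomal genes are expressed in most cells, so the list is not a marker of macrophages.

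Genes of MHC class II presentation, the pathway in which cathepsin S acts, stayed mostly near 0. Of 12 measured, 2 (16.7%, beside 8.78% of all features) were higher and 0 (beside 9.93%) lower at day 21, with a median of 0.01. Ifi30, a lysosomal thiol reductase that unfolds antigens, stood at 0.44 ± 0.29 (adjusted p = 0.0218). H2-Eb2, a class II beta chain with close relatives, stood at 0.30 ± 0.14 (adjusted p = 0.0157). The call of Ifi30 was lost without array 1 (0.31, adjusted p = 0.192) or array 2 (0.40, adjusted p = 0.121), and that of H2-Eb2 without array 2 (0.22, adjusted p = 0.139). Leave-outs of Ifi30 began at 0.0089 and those of H2-Eb2 at 0.0151. Neither passed with day 21 fitted alone (adjusted p = 0.0756 and 0.0805), with equal spread (0.089 and 0.0632) or after quantile normalization (0.0594 and 0.0586).

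Among 14 myeloid transcription factors, 1 (7.14%, near the 8.78% of all features) was higher and 0 lower at day 21, with a median of 0.13. This was Spi1, the gene of the ETS factor whose core letters were searched above. It measured 0.42, 0.08 and 0.57 (0.36 ± 0.25, adjusted p = 0.0156), and like C1qb and Ctss it was highest on array 3 and lowest on array 2. The call was lost without array 1 (0.32, adjusted p = 0.108) or array 3 (0.25, adjusted p = 0.11), with leave-outs from 0.00669 to 0.11, and with day 21 fitted alone (adjusted p = 0.0985). That array order of Spi1 is not particular to macrophage genes, since Dcn and Zfpm2, described below, showed it at day 21 too. Fcgr3 and Mrc1 were lowest on array 3 there. Of 33 genes shared by white blood cells, 4 (12.1%, beside 8.78% of all features) were higher at day 21. In the other direction, 2 (6.06%, beside 9.93%) were lower, and the median was 0.07. With so few genes, these counts say nothing particular of the list. Cyba, a subunit of the NADPH oxidase, was at 0.81 ± 0.05 (adjusted p = 0.000201), Lsp1, an actin-binding protein of leukocytes, at 0.60 ± 0.20 (adjusted p = 0.00168) and Lcp1, L-plastin, at 0.53 ± 0.35 (adjusted p = 0.0493). The first 2 held without each array, whereas Lcp1 held in 3 of 12 leave-outs, with adjusted p from 0.00988 to 0.312 and its lowest value, 0.36, without array 1. Lcp1 was also lost with the replicate block (0.53, adjusted p = 0.051), with day 21 fitted alone (0.0665), with equal spread (0.175) and after quantile normalization (0.194).

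Platelet and megakaryocyte genes had a median of 0.04 at day 15, when Pf4 was at 1.11. Of 30 measured, 0 passed the limma test at that day, beside 5.66% of all features higher and 4.9% lower. At an unadjusted p under 0.05 there were 4, against 1.5 expected. With so few genes, a count of 0 beside these shares says nothing particular of the list. With array weights 6 passed at that day, and without array 3, or on the first array set alone, 2 did. At day 21, 3 (10%, near the 8.78% of all features) were higher and 0 lower, with a median of 0.07, so the count says nothing particular of the list. The 3 were Thbs1, thrombospondin 1, at 0.54 ± 0.19 (adjusted p = 0.00402), F2r, a thrombin receptor, at 0.48 ± 0.32 (adjusted p = 0.0127), and F2rl3, another thrombin receptor, at 0.28 ± 0.03 (adjusted p = 0.0377). Thbs1 and F2r are also made by fibroblasts and endothelium. Without array 1 none of the list passed, with Thbs1 at 0.45 (adjusted p = 0.0546), F2r at 0.34 (adjusted p = 0.137) and F2rl3 at 0.28 (adjusted p = 0.155). These are the highest of their leave-outs, which begin at 0.00291, 0.00422 and 0.0264. F2r was also lost without array 2 (0.46, adjusted p = 0.0834), and F2rl3 held in 7 of 12 leave-outs. Neither F2r nor F2rl3 passed with day 21 fitted alone (adjusted p = 0.0704 and 0.0619), with equal spread (0.0637 and 0.141) or after quantile normalization (0.0516 and 0.126).

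Genes that define platelets and megakaryocytes lay near 0 beside Pf4 at day 21. Itga2b, the CD41 integrin, stood at 0.15 ± 0.05 (limma adjusted p = 0.365), Gp9, a chain of the receptor for von Willebrand factor, at 0.19 ± 0.18 (adjusted p = 0.187), and Gata1, the factor of red cells and megakaryocytes, at 0.06 ± 0.04 (adjusted p = 0.683). Ppbp, the neighbouring chemokine of the same platelet granules, stood at -0.22 ± 0.06 (adjusted p = 0.0817). None of these 4 passed the test at any day or without any array. The label of platelet gene thus rests on Pf4 here, and the defining markers of the lineage were not seen to move with it.

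**Figure D2:**
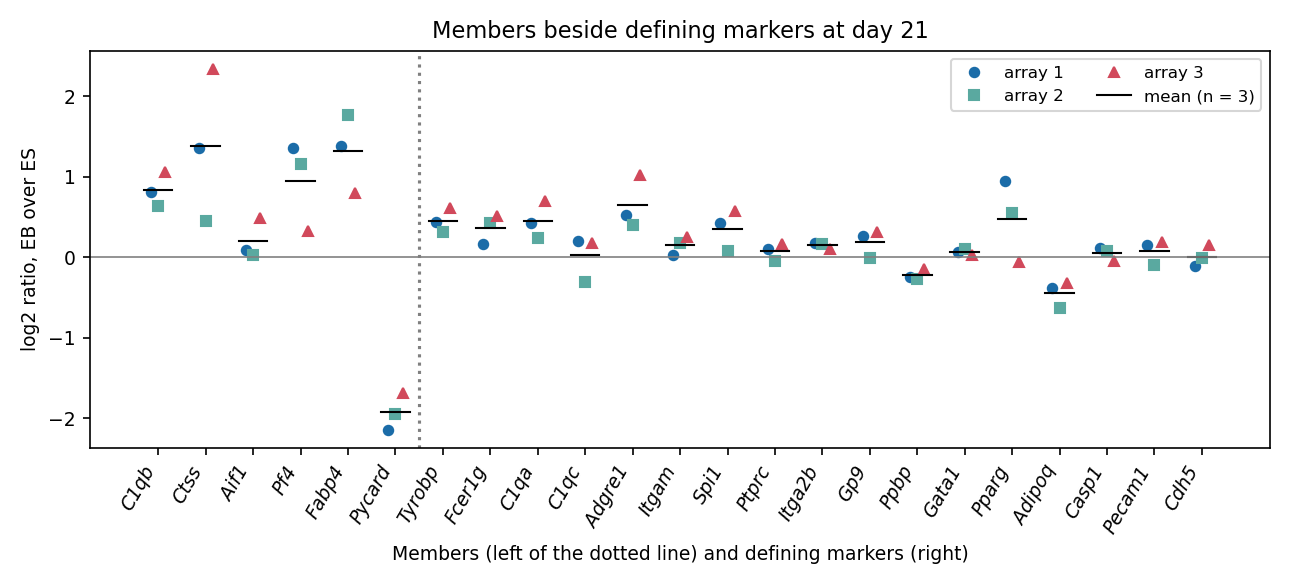
Log2 ratio of EB over ES at day 21 (vertical axis) on each of the 3 arrays, with the mean as a bar, for the 6 genes (left of the dotted line) and 17 defining markers (right). Tyrobp, C1qa, Adgre1, Fcer1g, Spi1, Itgam, Itga2b and Gata1 lie above 0 on all 3 arrays. All arrays of Itga2b, Gp9, Ppbp and Gata1 lie within 0.4 of 0, as do those of Itgam, Ptprc and C1qc. Pf4 lies at 0.33 to 1.36.

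CXC chemokines and their receptors, the family of Pf4, held 1 gene (5.56%) higher and 0 lower of 18 at days 15 and 21. Over all features 5.66% and 8.78% were higher on these days, so the counts say nothing particular of the list. The median was 0.05 at both. The higher gene was Ackr3, a scavenger receptor of Cxcl12. Its mean was 0.51 ± 0.09 at day 15 (limma adjusted p = 0.0341) and 0.56 ± 0.36 at day 21 (adjusted p = 0.0136). The day 21 call was lost without array 1 (0.38, adjusted p = 0.146) or array 2 (0.55, adjusted p = 0.0788), with leave-outs from 0.00579 to 0.146, and with day 21 fitted alone (adjusted p = 0.0631). Without array 1, 2 or 3 of day 15 the earlier call was lost as well, with adjusted p of 0.178, 0.193 and 0.0506 beside a lowest of 0.0199.

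Red cell and endothelial genes, of lineages that share precursors with the blood cells above, were read beside Pf4 and Fabp4. Hba-x, an embryonic globin, measured 1.74, 1.75 and 0.38 at day 15 (1.29 ± 0.79, adjusted p = 0.0106) and 1.48, 1.06 and -0.08 at day 21 (0.82 ± 0.81, adjusted p = 0.0524). Like Pf4 it was lowest on array 3 of both days. That pattern is not particular to these genes, since Fcgr3, Cfb, Cd55, Lamp2 and Cyba showed it on both days too. Array 3 also had the smallest SD over all features at days 15 and 21 (0.324 and 0.351). The day 15 call of Hba-x was lost without array 1 (1.06, adjusted p = 0.109) or array 2 (1.06, adjusted p = 0.129), from 0.00138 upward over the leave-outs, and with day 15 fitted alone (adjusted p = 0.0812). Hbb-b2, an adult globin with a near-identical neighbour, was at 1.31 ± 0.54 at day 21 (adjusted p = 0.000448). Klf1, a transcription factor of red cells, was lower at -0.59 ± 0.06 (adjusted p = 0.00064). The erythroid list of 20 had 1 (5.0%, beside 8.78% of all features) higher and 3 (15.0%, beside 9.93%) lower at day 21. Its median was 0.07.

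Of 22 endothelial genes, 8 (36.4%, beside 8.78% of all features) were higher and 0 lower at day 21. Their median was 0.20, and 10 had an unadjusted p under 0.05. Icam2, an adhesion molecule of endothelium and blood cells, measured 1.58, 1.03 and 0.51 (1.04 ± 0.53, adjusted p = 0.00157). Ramp2, the partner of the adrenomedullin receptor, was at 0.55 ± 0.15 (adjusted p = 0.00333), and both held without each array. Sox18, a vascular transcription factor, was at 0.61 ± 0.37 (adjusted p = 0.0145), but not called without array 1 (0.44, adjusted p = 0.147) or array 2 (0.58, adjusted p = 0.0891), beside a lowest of 0.0036, or with day 21 fitted alone (adjusted p = 0.0537). Pecam1 at 0.08 ± 0.16 (adjusted p = 0.66) and Cdh5 at 0.01 ± 0.13 (adjusted p = 0.955), the CD31 and VE-cadherin genes that define the lineage, did not pass. Fabp4 is made in small vessels, and the part of endothelium in its values was not tested. Without array 1 or array 2 of day 21, 3 of the 22 passed.

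Fatty acid binding proteins divided at day 21. Fabp5, the epidermal member that macrophages also make, was higher at 0.89 ± 0.23 (0.99, 1.06 and 0.63 on the arrays, limma adjusted p = 0.00013), beside Fabp4 at 1.32. Fabp3, the heart member, was lower at -0.75 ± 0.03 (adjusted p = 0.00162). Fabp7, the brain member, was higher at 0.92 ± 0.93 (1.92, 0.76 and 0.08, adjusted p = 0.0329), but not without array 1 (0.42, adjusted p = 0.299) or array 2 (1.00, adjusted p = 0.102), from 0.00682 upward over the leave-outs. It was also lost with day 21 fitted alone (adjusted p = 0.132), with equal spread (0.0768) and after quantile normalization (0.0564). Fabp4 and Fabp7 were both lowest on array 3, as were many other higher genes. Fabp5 was already higher at day 15 (0.67 ± 0.05, adjusted p = 0.00172), when Fabp4 stood at 0.17.

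The list of fatty acid binding and adipocyte genes held 5 (17.9%, beside 8.78% of all features) higher of 28 at day 21. It held 4 (14.3%, beside 9.93%) lower, and the median was 0.12. Besides Fabp5 and Fabp7, the higher genes were Lpl, lipoprotein lipase, at 0.64 ± 0.43 (limma adjusted p = 0.0103), Cidec, a lipid droplet protein of adipocytes, at 0.57 ± 0.16 (adjusted p = 0.00101), and Plin2, a lipid droplet coat protein of many cells, at 0.57 ± 0.17 (adjusted p = 0.00855). These 3 were named after their values were seen. Cidec measured 0.64, 0.68 and 0.39 on the arrays, with array 3 the lowest, as for Fabp4 and many other higher genes. Adipoq, the hormone adiponectin that marks adipocytes, was lower at -0.44 ± 0.16 (adjusted p = 0.00603), but not called without array 2 (-0.35, adjusted p = 0.0698, from 0.00557 upward). Pparg, the factor that drives adipocyte differentiation and is also present in macrophages, measured 0.95, 0.55 and -0.06 (0.48 ± 0.51, adjusted p = 0.0755). Adipocyte genes thus went both ways at day 21, Cidec higher and Adipoq lower.

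The inflammasome list had a median of -0.05 at day 21, beside Pycard at -1.92. Of 18 measured, 1 (5.56%, beside 8.78% of all features) was higher and 2 (11.1%, beside 9.93%) lower at day 21. The counts are near these shares, so they say nothing particular of the list. At an unadjusted p under 0.05 there were 7, against 0.9 expected. Aim2, named after its values were seen, had means of 0.36, 0.27, -0.02 and -0.30 at days 4, 8, 15 and 21. Its difference of -0.66 from day 4 to day 21 did not pass (limma adjusted p = 0.0542). Casp1, the protease that ASC recruits, measured 0.11, 0.08 and -0.04 (0.05 ± 0.08, limma adjusted p = 0.707). Il1b, the cytokine that this protease matures, was lower at -0.40 ± 0.29 (adjusted p = 0.0185), and Naip5, a sensor of bacterial flagellin, at -0.31 ± 0.15 (adjusted p = 0.0237). Casp8, an apoptotic protease that ASC can also bind, was higher at 0.30 ± 0.11 (adjusted p = 0.024).

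These 3 calls rested on single arrays. Without array 2 of day 21 none of the list passed, with Il1b at -0.23 (adjusted p = 0.178), Naip5 at -0.24 (adjusted p = 0.171) and Casp8 at 0.24 (adjusted p = 0.162). Naip5 was also lost without array 3 (-0.31, adjusted p = 0.0774) and Casp8 without array 1 (0.31, adjusted p = 0.0958). The lowest of their leave-outs were 0.0165, 0.0149 and 0.0155. At day 15, when Pycard stood at -1.57, 0 of 18 passed, beside 5.66% of all features higher and 4.9% lower. With so few genes, that count says nothing particular of the list. At that day 2 had an unadjusted p under 0.05, and 2 passed with array weights or without array 3. Under quantile normalization or with arrays scaled to equal spread, 0 passed at day 21, and with day 21 fitted alone these 3 did not pass (adjusted p = 0.0924, 0.0756 and 0.0685).

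Calls among markers of other blood cells are given beside the shares of all features. With so few genes, they are not read as results about these lists. Of 31 lymphoid genes, 0 were higher (beside 8.78% of all features) and 2 (6.45%, beside 9.93%) lower at day 21. Their median was -0.04, and 4 had an unadjusted p under 0.05. The lower ones were Thy1 at -0.59 ± 0.45 (adjusted p = 0.0462), which many other cells make, and Ebf1 at -0.38 ± 0.30 (adjusted p = 0.0238). Thy1 was called in 5 of 12 leave-outs (0.0255 to 0.346, highest without array 1 at -0.34), and Ebf1 was lost without array 1 (-0.39, adjusted p = 0.0997) or array 2 (-0.23, adjusted p = 0.216), from 0.00875 upward. Neither passed with day 21 fitted alone (adjusted p = 0.0807 and 0.108), with equal spread (0.119 and 0.0628) or after quantile normalization (0.112 and 0.0601), nor did Thy1 with the array set as a term (0.0578). Of 22 granulocyte and mast cell genes, 3 had an unadjusted p under 0.05 at day 21. After adjustment limma called 0 there, beside 8.78% of all features higher and 9.93% lower. At day 15 it called 1 (4.55%, beside 4.9% of all features) lower. This was Ngp, a granule protein, at -0.47 ± 0.38 (limma adjusted p = 0.0451). Ngp passed in 5 of 12 leave-outs (0.00522 to 0.307, highest without array 2 at -0.37). It did not pass with day 15 fitted alone (adjusted p = 0.15), equal spread (0.075) or quantile normalization (0.0735).

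**Figure D3:**
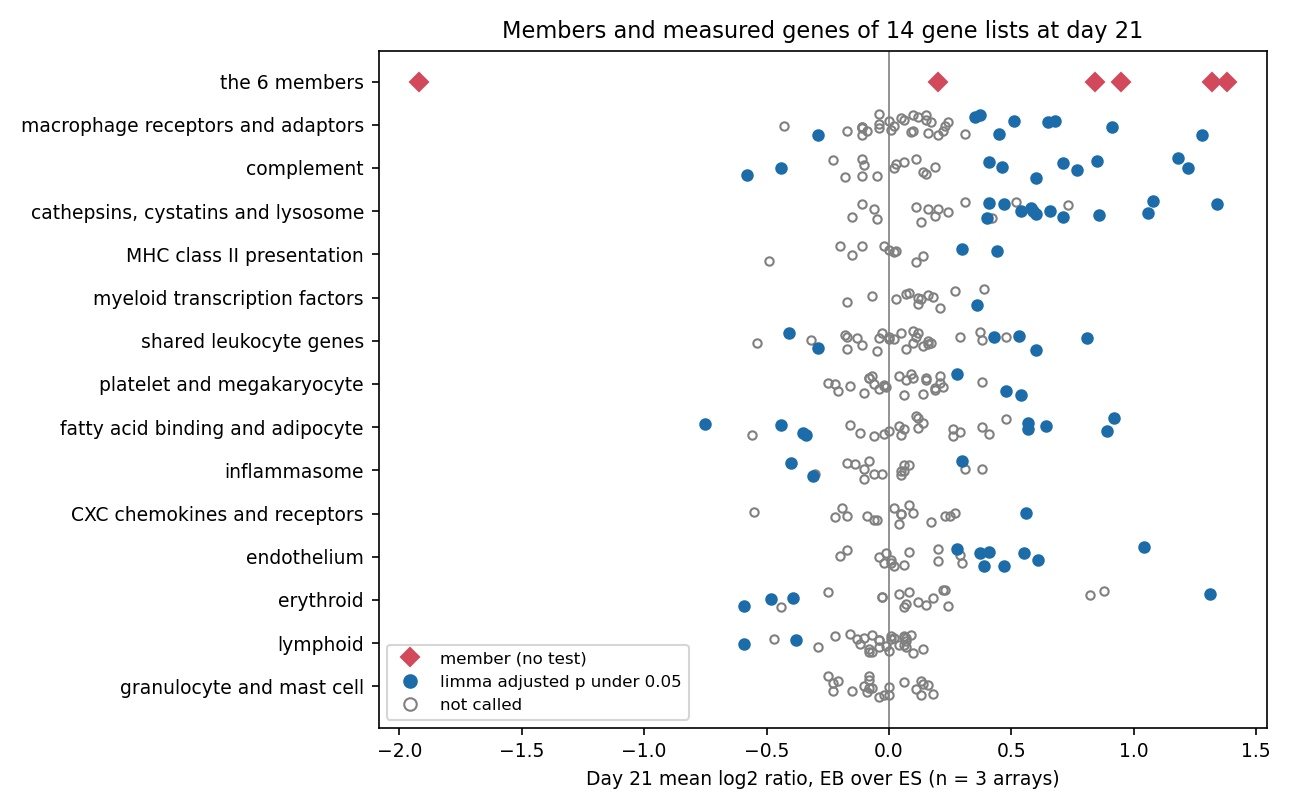
Day 21 mean log2 ratio of EB over ES over 3 arrays (horizontal axis) of the 6 genes (diamonds, not tested) and of the measured genes of 14 lists (1 line each), filled where limma's adjusted p was under 0.05. The cathepsin and lysosome line has 13 filled points, all above 0, the platelet line 3 and the inflammasome line 3, with Pycard far to the left at -1.92.

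The counts depended on single arrays. Without array 1 of day 21 the list genes called at that day fell to 34, and without array 2 to 35, of 71 in all, while 7.04% and 8.16% of all features were then called. At day 15 the 34 called became 8 without array 1, 6 without array 2 and 52 without array 3, beside 2.87%, 2.2% and 14.5% of all features. Macrophage receptors and adaptors called at day 21 numbered 5 without array 1, complement genes 5 without array 1 and 6 without array 2, and cathepsins and lysosomal genes 7 without either. On the first array set alone, where 10.3% of all features were called higher and 9.9% lower at day 21, macrophage receptors had 7 higher at day 21, complement 6 higher and 2 lower, cathepsins and lysosome 13 higher, platelets 4 higher and endothelium 7 higher.

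In differences between days, a dye effect that was alike on all arrays drops out. From day 4 to day 21, 23 of 328 list genes rose (7.01%, beside 2.62% of all features) and 3 fell (0.915%, beside 3.22%). They included 8 of 27 cathepsin and lysosomal genes, 3 of 37 macrophage receptors, 3 of 23 complement genes and 1 of 30 platelet genes, Thbs1. In the macrophage group Fcgr3 rose by 1.22 (limma adjusted p = 0.0101), Mrc1 by 0.98 (adjusted p = 0.0137) and Tyrobp by 0.65 (adjusted p = 0.00824), while C1qb differed by 0.82, Ctss by 1.48 and Aif1 by 0.46 without a test. Fcgr3 was not called without array 1 of day 21 (1.15, adjusted p = 0.052) nor Mrc1 without array 2 (0.77, adjusted p = 0.0542). Thbs1 rose by 0.67 (adjusted p = 0.0206), but was not called without array 1 of day 21 (0.58, adjusted p = 0.101), array 2 of day 21 (0.68, adjusted p = 0.0651) or array 1 of day 4 (0.59, adjusted p = 0.0917). From day 8 to day 15, 0 list genes passed in either direction, as against 0.131% of all features higher and 0.0468% lower, although 40 had an unadjusted p under 0.05 and 29 passed with array weights. Pf4 differed by 1.21 and Pycard by -1.42 over that interval.

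Genes with the most similar course were sought among 1375 features with 1 symbol whose day means span at least 0.5, by Pearson correlation over the 12 arrays, which share the ES partner and the course of the days. Pf4 was followed most closely by Cd248 and Myl4, both with 0.97. Cd248, endosialin of pericytes and fibroblasts, measured 1.53, 1.47 and 0.31 at day 15 and 1.81, 1.36 and 0.41 at day 21. Myl4, an atrial and embryonic myosin light chain, measured 1.95, 2.05 and 0.78, then 2.28, 1.25 and 0.34. Both dropped on array 3 as Pf4 and many other higher genes did, and correlations of deviations from the day means were 0.96 and 0.91. By Spearman's rank correlation they were 0.87 and 0.92, ranks 78 and 23 among the candidates.

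**Figure D4:**
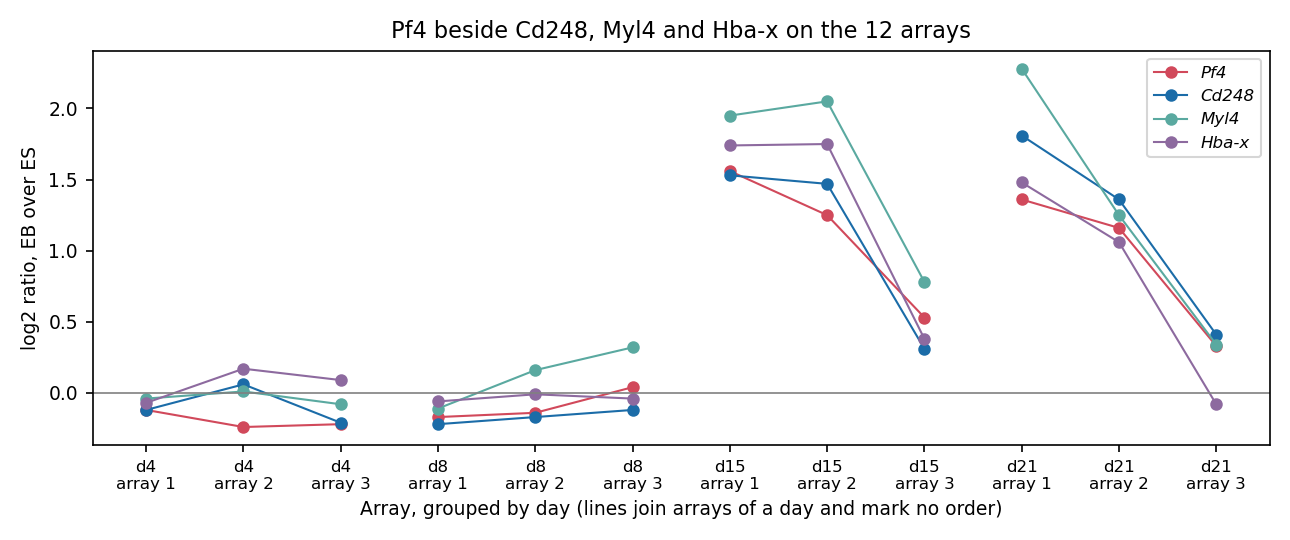
Log2 ratio of EB over ES (vertical axis) on the 12 arrays, grouped by day (horizontal axis), for Pf4, its 2 most similar genes Cd248 and Myl4, and the embryonic globin Hba-x. All 4 are near 0 at days 4 and 8, high on arrays 1 and 2 of days 15 and 21 and lower on array 3, where Pf4 has 0.53 and 0.33.

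The other genes had neighbours of different kinds. C1qb was most like Kng1, kininogen of liver (0.94), and Acaa1b, a peroxisomal thiolase (0.93). Ctss was most like Zfpm2, a cofactor of GATA proteins (0.90), and Lbp, which binds bacterial lipopolysaccharide in serum (0.89). Aif1 had the weakest neighbours, B2m, the light chain of MHC class I (0.80), and Cbx8, a Polycomb protein (0.78). Fabp4 was most like Col6a3, a chain of collagen VI (0.95), and Ltbp1, a matrix protein that binds latent TGF-beta (0.91). None of these 8 genes was a marker on the macrophage or platelet lists. These lists hold 37 and 30 of the 9212 genes, so their absence among 8 neighbours says little.

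Pycard was most like Upp1, uridine phosphorylase (0.95), and Bub1, a mitotic checkpoint kinase (0.94). Upp1 had means of -1.69 at day 15 and -1.85 at day 21, close to -1.57 and -1.92 for Pycard, and Bub1 had -0.33 and -0.53. With the mean of all 6 genes the highest correlations were those of Fads3 (0.95), Pla2g4a (0.93), Lbp (0.93), Tgfbi (0.93), Dcn (0.92), Tagln (0.91), Zfpm2 (0.91) and Nfib (0.91). Dcn and Tgfbi, matrix proteins of connective tissue, stood at 1.39 and 1.34 at day 21. The mean of the 6 combines Pycard with genes of the opposite sign, so it follows mainly the others. Likeness over days is a description, and says nothing of the cells in which a gene was expressed.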

How the data were processed

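RNA of 12 two-channel arrays was compared, 3 arrays for each of 4 days, with groups and array numbers from the sample titles. The deposited values, per the labels, are normalized log ratios, read here as log2 because base 2 is the convention; the base, the normalization, the scanner, the background correction and the array design are not given in the sources used here. The largest absolute value is 4.47, 0 values are missing, and the columns were centred near 0. Intensities were not used here, so signal over background is unknown, and the number of arrays limits the precision. The deposited sign was kept, positive for EB, which is likely and not settled.

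Of the 11520 features, 10043 had 1 gene symbol in the platform's annotation at GEO, whose names may be dated, 29 had several and 1448 had none. Entrez IDs matched RefSeq's gene table of GRCm38.p6 for 10025, and 0 symbols changed. Probes of a gene were averaged, giving 9212 genes and, with unnamed features, 10689 features.

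limma 3.58.1 under R 4.3.3 (lmFit, then eBayes) was fitted over all arrays at once, each day having its own mean, which left 8 residual and 4.35 prior degrees of freedom. Days were tested against 0 and against each other by two-sided tests, with the Benjamini-Hochberg adjustment made over all features of a comparison and a threshold of 0.05. The fit was tested on simulated arrays. The 6 genes were not tested. The genes and the lists were chosen with earlier results of these data known, and the lists overlap.

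Named genes are the 6, for each list up to 3 genes called at day 15 or 21 with 1 sign on all arrays of that day, by largest absolute day 21 mean (or 2 by value where none was called), 20 defining markers, and the most similar genes (8 for the mean, 2 for each gene). Alternatives left out each array, added the replicate number as a block, array weights or the array set, rescaled the arrays, fitted each day alone or kept each probe. Same-numbered arrays of different days were checked for shared deviations. Of 18 pairs, 8 had a correlation over 0.1 (range -0.141 to 0.379), so the numbers were not taken to pair the arrays. Errors are SDs over 3 arrays. Sequences are from RefSeq, and plots were drawn with matplotlib 3.10.9.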

Additional observations from a re-analysis of the deposited data

Results flagged for a closer look

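For the genes that follow, the difference between days was itself tested, and the day 21 ratio to ES cells differed from the day 4 ratio. Apart from the defining marker Tyrobp, they had been named for calls at day 15 or 21 and large day 21 means. The contrast uses the same day 21 values, so these calls are no separate support. Over all features 2.62% were called higher and 3.22% lower in this contrast. In macrophage and white blood cell genes the day 21 minus day 4 difference was 1.22 for Fcgr3, 0.98 for Mrc1, 0.65 for Tyrobp, 0.92 for Cyba and 0.60 for Lsp1. In complement genes it was 1.17 for Cfb, 1.11 for Cd55 and 0.99 for Cfi, and in lysosomal genes 1.53 for Lamp2 and 1.35 for Ctsb. Thbs1 differed by 0.67, Fabp5 by 0.80, Icam2 by 1.06, Ramp2 by 0.59, Hbb-b2 by 1.24 and Klf1 by -0.61. Of these 16 calls 6, those of Tyrobp, Cyba, Cfb, Lamp2, Ctsb and Fabp5, held without each of the 12 arrays. Each of the other 10 was lost without array 1 or array 2 of day 21, and some without further arrays, with the highest adjusted p of 0.124 for Lsp1 and 0.116 for Ramp2.

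For 3 of the 6 genes selected on these values, all arrays of one day lay on one side of 0 and all arrays of another day on the opposite side, and these differences were not tested. Ctss differed by 1.70 between day 21 and day 8, and Fabp4 by 1.76 between the same days. Pf4 differed by 1.31 between day 15 and day 4 and by 1.14 between day 21 and day 4. With 3 arrays a day, no array was tested for lying far from the others.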

How the results depend on the processing

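Among the 50 genes named from the lists or as defining markers, no called value changed its sign under the alternatives compared. The signs of other list genes, and of the fit that kept each probe, were not compared. Fabp4 at day 15, a value of 0.17 with no test, changed sign without array 2 (-0.02) and on the second array set, where C1qb at day 15 did too (0.27 to -0.06). With the replicate block, list genes called numbered 10 at day 8, 38 at day 15, 76 at day 21 and 26 from day 4 to day 21, each within 1.5 times the value without it, and among the named genes Lcp1 at day 21 was the call lost (0.53, adjusted p = 0.051), and 10 of 12 arrays correlated best with arrays of their own number. Against ES cells at day 4 (0 called), 1 passed with the array set as a term or equal spread, 2 with array weights or the second set alone, and 3 after quantile normalization. At day 8 (8 called), 38 passed with array weights, 21 with equal spread, 18 after quantile normalization, 0 with each day fitted alone or the first set alone, and 0 to 11 without an array. At day 15 (34 called), 95 passed with array weights, 62 on the first set, 1 on the second, 10 with each day alone, and 6 to 52 without an array. At day 21 (71 called), 46 passed with each day alone, 41 with equal spread, 42 after quantile normalization, 4 on the second set, and 34 to 77 without an array. From day 4 to day 21 (26 called), 48 passed with array weights, 15 with equal spread, 41 on the first set, 0 on the second, and 9 to 29 without an array. From day 8 to day 15 (0 called), 29 passed with array weights, 7 on the first set and 0 to 6 without an array. Fewer arrays enter the set and single-day fits. For the rest the cause was not tested. The restriction to 1 set was chosen after seeing the data.

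On the second set, which is array 3 alone at days 15 and 21, C1qb stood at 1.06 and Ctss at 2.34 at day 21, and Aif1 at 0.39 and 0.49, Pf4 at 0.53 and 0.33, Fabp4 at -0.32 and 0.80 and Pycard at -1.37 and -1.68 at days 15 and 21. Pycard at day 21 was -1.67 after quantile normalization and -1.54 with equal spread. Each of the 6 has 1 probe, so probes could not be compared, and fits of single days give no differences between days. Of 50 genes named from the lists or as defining markers, 37 were called at day 21, and 17 of these held without each array. At day 15, 5 of 21 held. Apart from the defining markers, these genes were named for calls at day 15 or 21 and by the day 21 mean. The numbers of calls are thus fixed in part by that choice. Over all features 8.78% were called higher and 9.93% lower at day 21, and 5.66% and 4.9% at day 15.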
